A study of Mus musculus with 12 samples.

Results

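The genes described here are the nuclear-encoded genes of the mitochondrial respiratory chain, read in mouse bone marrow-derived macrophages. They were chosen by symbol alone: a gene was a member if the array's annotation gave it a symbol of the Nduf, Sdh, Uqcr, Cyc1, Cox4 to Cox8 or Atp5 families. This gave 87 genes, measured by 135 probes, of 19057 genes named by the array. By complex they were 35 subunits of complex I (NADH dehydrogenase), 8 complex I assembly factors of the Ndufaf family, 4 subunits of complex II (succinate dehydrogenase), 8 of complex III (the cytochrome bc1 complex), 16 of complex IV (cytochrome c oxidase) and 16 of complex V (ATP synthase). Ndufa4 was counted with complex I by its symbol, though it is now assigned to complex IV. Where a gene had several probes, which was so for 35 members, the probe with the highest mean signal stood for it.

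The respiratory chain lies in the inner mitochondrial membrane. Complexes I and II pass electrons from NADH and succinate to ubiquinone, complex III passes them on to cytochrome c, and complex IV reduces oxygen. The protons pumped on the way drive ATP synthesis by complex V. Most subunits are encoded in the nucleus and imported, and a few core subunits of complexes I, III, IV and V are encoded by mitochondrial DNA. Macrophages stimulated through Toll-like receptor 4 are known to shift from respiration towards glycolysis.

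The study asked how human beta-defensin 3 (hBD3), an antimicrobial peptide, alters the response of macrophages to KLA, a purified lipid A that stimulates Toll-like receptor 4. Macrophages were grown from femur bone marrow of Balb/c mice in M-CSF (20 ng/ml), then kept without it, and treated for 6 h with KLA plus hBD3, with KLA (50 ng/ml) alone, with hBD3 alone or with neither (untreated), with 3 arrays per group and 12 in all. The sample label of KLA plus hBD3 gives no dose, and the unit of the hBD3 dose differs between the labels and the study's methods. In KLA replicates 2 and 3 the sample title also names the peptide, whereas the treatment label is KLA alone.

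RNA was hybridised to Illumina bead arrays with 45281 probes. Signals are on the log2 scale after quantile normalization, which gives all arrays the same distribution, and are not compared between probes. Between 12363 and 15629 probes were detected per array, with fewer in KLA plus hBD3 (12543 to 14644) and KLA (12363 to 13571) than in hBD3 (14353 to 14980) and untreated cells (14610 to 15629). Of the markers of other cells 9 of 11 for neutrophils, 6 of 8 for dendritic cells, 4 of 10 for stromal cells, 7 of 7 for T and NK cells, 2 of 3 for B cells and 3 of 3 for erythroid cells were detected nowhere. The stromal marker Pdgfrb was at least 2.27-fold higher in KLA than in untreated cells, where no array detected it, and no marker of dendritic, T and NK, B or erythroid cells was called with KLA. The 10 stromal markers averaged 7.45 in hBD3 replicate 3 and 5.93 to 6.21 in the other 11 arrays. The 10 genes known to respond to KLA stood 3.38 to 3.67 above the untreated mean in KLA plus hBD3, 4.74 to 4.79 above it in KLA, and at 1.26, 0.08 and -0.27 in hBD3, so that hBD3 replicate 1 was above the rest of its group. KLA plus hBD3 replicate 3 stood apart in the members, as described with each result that rests on it.

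Of the 87 members 73 were detected in every array of at least 1 group and 67 in all 12 arrays, at the authors' detection p under 0.01. At a detection p under 0.05 these counts were 75 and 69. The probes of 9 members were detected in no array. They were those of Ndufs1, Sdha and Uqcrfs1, which encode core subunits of complexes I, II and III, of the assembly factor Ndufaf6, and of Cox4i2, Cox6b2, Cox7b2, Cox8b and Cox8c, which are isoforms of complex IV known from lung, testis, heart or muscle. Another 5 were detected in some arrays but in no whole group. For the 57 members with a mean log2 signal of at least 8, called bright here, the 4071 bright genes of the whole array are given as the background.

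With KLA 14 of the 87 members were lower than in untreated cells and 4 were higher (limma, Benjamini-Hochberg adjusted p under 0.05 over all probes), which is 16.1% and 4.60%. Of all 19057 genes, with 1 probe each, 11.6% were called lower and 9.70% higher. Most probes of the array were undetected, so that bright genes are the closer background. Of the 57 bright members 10 (17.5%) were called lower and 2 (3.51%) higher, where 28.7% and 22.7% of bright genes were. The share of bright members called was thus below that of bright genes in both directions, a difference that was not tested. The bright members also had wider SEs here, with a median of 0.19 where all bright genes had 0.14. Those SEs rest on the spread in all 12 arrays, KLA plus hBD3 replicate 3 among them. A wider SE gives fewer calls at the same change, but its part in these counts was not tested. By sign 67 of the 87 log2 changes were negative. Their median was -0.21 where that of all genes was 0.02, and the bright members had a median of -0.23 where all bright genes had -0.08. Of the 12 macrophage markers, all detected, 6 were called lower with KLA, among them Csf1r (-1.78), and 2 higher, Mertk (0.71) and Cd14 (0.61). Their array means were 10.93 to 11.21 in KLA plus hBD3, 10.25 to 10.51 in KLA, 10.94 to 11.21 in hBD3 and 10.79 to 11.16 in untreated cells. Of the 11 neutrophil markers 2 were called higher with KLA, S100a8 (1.44) and Camp, which was detected in no untreated array and was at least 2.17-fold higher. The array means of that list were 6.00 to 6.11 in KLA plus hBD3, 6.14 to 6.35 in KLA, 5.97 to 5.98 in hBD3 and 5.94 to 5.97 in untreated cells. The part of these markers in the results was not tested. In a bulk RNA sample, fewer cells of a type and less RNA per cell cannot be told apart.

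The sign of that median depended on the scaling of the arrays. It was -0.58 with median centring of the signals before normalization, where bright genes stood at -0.61, and 0.13 when arrays were scaled to the probes detected in all 12, where bright genes stood at 0.10 and all probes at 0.71. In both cases the bright members (-0.63 and 0.08) lay close to the bright genes. With median centring 40 of the 87 members were called lower and 1 higher, and with scaling to detected probes 9 and 23. These counts include the dim members. Of bright genes 46.3% were lower and 6.93% higher with median centring, and 25.0% and 32.8% with scaling to detected probes. The members called in the same direction under quantile normalization, neqc and both of these scalings were 8 of 18. They were Atp5a1, Atp5d, Ndufb8, Ndufb9, Ndufs3, Ndufs7 and Sdhb, lower with KLA, and Cox6a2, higher with KLA. The second probe of Atp5a1 showed no fall, as given below.

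**Figure D1:**
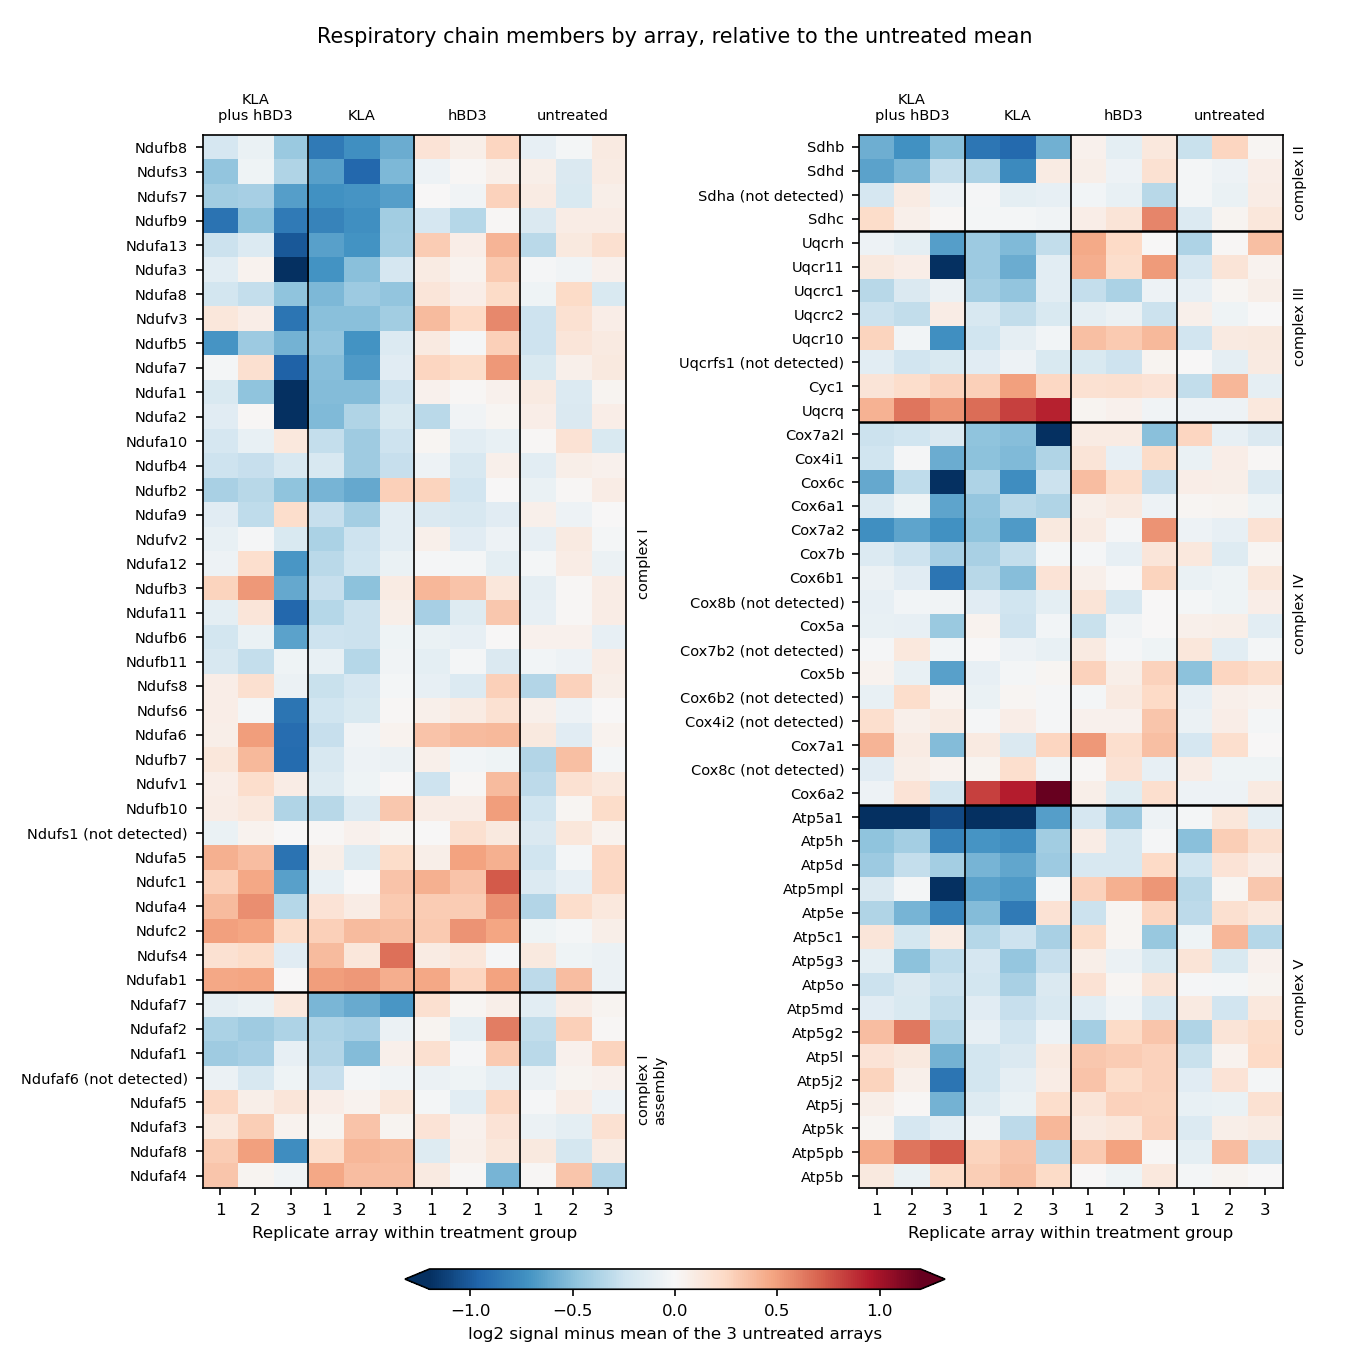
Log2 signal of each of the 87 members (lines, by complex) in each of the 12 arrays (columns, by treatment group), minus the mean of the 3 untreated arrays, with blue lower and red higher. KLA plus hBD3 replicate 3 is the lowest array of its group for 52 of 87 members, untreated replicate 1 for 50 and hBD3 replicate 2 for 46. Cox6a2 is high in the 3 KLA arrays alone.

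In complex I, the one with the most members, 6 were called lower with KLA (17.1%) and 1 higher (2.86%) of 35. The median change was -0.22 under quantile normalization. The background for each complex is 11.6% lower and 9.70% higher over all genes, and 28.7% and 22.7% over bright genes. Ndufb8, an accessory subunit of the membrane arm, stood at 11.34, 11.46 and 11.09 with KLA plus hBD3, 10.69, 10.80 and 10.94 with KLA, 11.70, 11.61 and 11.80 with hBD3 and 11.44, 11.52 and 11.65 in untreated cells. All KLA arrays lay below all others. Ndufb8 fell by 0.73 ± 0.11 with KLA (log2 change ± SE, n = 3 per group, limma adjusted p = 0.000422), and its dimmer probe by 0.47 (adjusted p = 0.00114). Ndufs7, the core subunit with the last iron-sulfur cluster before ubiquinone, read 10.85, 10.87 and 10.61 with KLA plus hBD3, 10.54, 10.56 and 10.61 with KLA, 11.27, 11.23 and 11.55 with hBD3 and 11.37, 11.09 and 11.34 in untreated cells. Here both groups with KLA lay below both without it. The fall of Ndufs7 with KLA was 0.70 ± 0.11 (adjusted p = 0.000611).

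The core subunit Ndufs3 had signals of 9.53, 9.95 and 9.64 with KLA plus hBD3, 9.35, 9.06 and 9.46 with KLA, 9.94, 10.01 and 10.06 with hBD3 and 10.07, 9.83 and 10.10 in untreated cells. It fell by 0.71 ± 0.13 with KLA (adjusted p = 0.00192), with KLA arrays apart from untreated ones. Ndufb9, an accessory subunit of the membrane arm, fell by 0.65 ± 0.14 (adjusted p = 0.00625) and was detected in all arrays but 1 of KLA plus hBD3. Ndufa8, an accessory subunit on the intermembrane side, fell by 0.48 ± 0.10 (adjusted p = 0.00677), while its second probe stood at -0.11. The sixth of the members called lower, Ndufb4, was detected in no KLA array and in 2 of 3 untreated arrays, so that no fold is given (means 5.78 and 6.08, adjusted p = 0.0417, lost in 8 of 12 fits that left out an array, with adjusted p up to 0.164).

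Ndufc2, an accessory subunit of the membrane arm, went the other way and rose by 0.34 ± 0.09 with KLA (adjusted p = 0.0177; adjusted p up to 0.0655 without KLA replicate 2, untreated replicate 1 or untreated replicate 2), although it stood at -0.08 with median centring. Ndufab1, the mitochondrial acyl carrier protein, stood at 0.49 ± 0.16 (adjusted p = 0.0699) on its main probe, and its other probe was called higher (0.66, adjusted p = 0.000871). Ndufa13 stood at -0.59 ± 0.21 (adjusted p = 0.09) and Ndufa5 at 0.05 ± 0.29 (adjusted p = 0.955). Ndufb5, of the membrane arm, stood at -0.45 (adjusted p = 0.0642, or 0.0312 when the replicate number was a block).

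Of the 8 complex I assembly factors 1 fell with KLA and 0 rose, with a median of -0.02. It was Ndufaf7, a methyltransferase that modifies a core subunit during assembly. Ndufaf7 read 6.63, 6.66 and 6.87 with KLA plus hBD3, 6.19, 6.14 and 6.04 with KLA, 6.93, 6.76 and 6.81 with hBD3 and 6.61, 6.83 and 6.77 in untreated cells. Its KLA arrays lay below all 9 others, and it was detected in 1 of the 3. The fall was 0.61 ± 0.09 (adjusted p = 0.000372), a call that was lost when arrays were scaled to the probes detected in all of them. Ndufaf4, by contrast, stood at 0.40 ± 0.19 (adjusted p = 0.226), and Ndufaf5 at 0.08 ± 0.10.

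Complex II is also an enzyme of the tricarboxylic acid cycle, and of its 4 genes Sdhb was called. Sdhb, the iron-sulfur subunit, read 9.49, 9.35 and 9.58 with KLA plus hBD3, 9.21, 9.15 and 9.50 with KLA, 10.13, 9.96 and 10.21 with hBD3 and 9.81, 10.34 and 10.10 in untreated cells. As for Ndufs7, both groups with KLA lay below both groups without it. Sdhb fell by 0.79 ± 0.14 with KLA (adjusted p = 0.00133), and its second probe by 0.45 (adjusted p = 0.0467). The membrane anchor Sdhc stood at -0.03 ± 0.12 (adjusted p = 0.936).

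Promoters of 4 of these genes are shown because the genes fell with KLA and their sequences hold cores of factors known for respiratory genes, NRF1, the ETS factor GABP and YY1. They are from RefSeq (GRCm38.p6), 250 bases before to 50 after the start, given 5′ to 3′ on the strand of the gene. Capitals mark the cores searched on both strands, GCATGCGC for NRF1, CCGGAAG for ETS factors and AAGATGGC for YY1. The YY1 letters include an ATG, so that a match can overlap a start codon, and the NRF1 letters partly match their own reverse complement. The windows are Sdhb at chr4:140961021-140961320 (plus strand), Ndufb8 at chr19:44555393-44555692 (minus strand), Ndufs7 at chr10:80249199-80249498 (plus strand) and Ndufs3 at chr2:90904672-90904971 (minus strand).
Sdhb: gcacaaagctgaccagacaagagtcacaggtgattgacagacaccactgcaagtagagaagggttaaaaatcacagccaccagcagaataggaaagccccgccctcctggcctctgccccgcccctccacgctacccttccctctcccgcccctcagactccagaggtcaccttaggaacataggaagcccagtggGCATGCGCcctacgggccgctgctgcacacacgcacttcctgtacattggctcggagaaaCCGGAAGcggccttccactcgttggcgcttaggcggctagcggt
Ndufb8: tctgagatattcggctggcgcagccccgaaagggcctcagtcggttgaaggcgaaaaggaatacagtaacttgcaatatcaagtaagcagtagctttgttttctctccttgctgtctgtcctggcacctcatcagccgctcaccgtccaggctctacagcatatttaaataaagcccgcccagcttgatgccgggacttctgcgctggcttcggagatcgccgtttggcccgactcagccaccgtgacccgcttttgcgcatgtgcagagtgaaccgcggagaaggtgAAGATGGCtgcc
Ndufs7: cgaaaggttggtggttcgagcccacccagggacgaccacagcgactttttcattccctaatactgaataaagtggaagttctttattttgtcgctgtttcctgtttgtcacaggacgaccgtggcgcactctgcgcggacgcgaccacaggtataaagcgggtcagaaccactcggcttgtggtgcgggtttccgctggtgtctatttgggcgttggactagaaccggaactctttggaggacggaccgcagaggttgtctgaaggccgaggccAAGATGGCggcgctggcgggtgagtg
Ndufs3: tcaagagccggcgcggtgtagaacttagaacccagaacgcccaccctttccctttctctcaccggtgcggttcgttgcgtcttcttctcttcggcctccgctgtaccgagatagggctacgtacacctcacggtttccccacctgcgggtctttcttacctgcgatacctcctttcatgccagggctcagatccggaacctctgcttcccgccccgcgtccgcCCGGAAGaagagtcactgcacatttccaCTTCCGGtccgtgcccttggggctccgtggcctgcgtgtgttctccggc

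Of the 87 members 72 matched the promoter table by gene identifier, with 77 windows. The NRF1 core was in 12 of them (15.6%), the ETS core in 18 (23.4%) and the YY1 core in 11 (14.3%), against 2.71%, 8.86% and 2.75% of all 32851 windows. Among the 12 windows of 11 members called lower with KLA the shares were 16.7%, 25.0% and 16.7%, close to those of all members. The windows of Ndufb8 and Ndufs7 hold the YY1 letters just after the start, that of Sdhb the NRF1 and ETS letters, and that of Ndufs3 the ETS letters on each strand. A match is a description of the sequence and not a bound site.

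Complex III held 1 call among 8 members, and it was a rise. Uqcrq, a small subunit near the ubiquinone site, read 7.76, 7.98 and 7.88 with KLA plus hBD3, 8.01, 8.16 and 8.26 with KLA, 7.37, 7.39 and 7.30 with hBD3 and 7.28, 7.28 and 7.47 in untreated cells. Both groups with KLA lay above both without it. Uqcrq rose by 0.80 ± 0.09 with KLA (adjusted p = 4.75e-05), a call that was lost with median centring. The core subunit Uqcrc1 stood at -0.34 (adjusted p = 0.0691, or 0.0117 with the block), and Uqcr10 at -0.13 ± 0.20 (adjusted p = 0.793). The median over the complex was -0.18.

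Complex IV held the member with the largest rise with KLA among the 87. Cox6a2 encodes the isoform of subunit VIa known from heart and skeletal muscle. It read 6.50, 6.72 and 6.34 with KLA plus hBD3, 7.38, 7.50 and 8.03 with KLA, 6.63, 6.41 and 6.76 with hBD3 and 6.50, 6.50 and 6.67 in untreated cells, and was detected in all 12 arrays. The KLA arrays lay above all others, and the other groups overlapped. Cox6a2 rose by 1.08 ± 0.16 with KLA (adjusted p = 0.000452). Its widely expressed counterpart Cox6a1 read 12.51, 12.62 and 12.04 with KLA plus hBD3, 12.21, 12.35 and 12.31 with KLA, 12.74, 12.78 and 12.61 with hBD3 and 12.69, 12.70 and 12.62 in untreated cells. Cox6a1 stood at -0.38 ± 0.12 with KLA (adjusted p = 0.0633, or 0.0294 with the block).

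Cox4i1, the common isoform of subunit IV, fell by 0.47 ± 0.13 with KLA (adjusted p = 0.0327) but stood at 0.01 with scaling to detected probes, and its call was lost without KLA replicate 1 or 2 or any untreated array (adjusted p up to 0.108). Cox7a2l, which joins complexes III and IV into supercomplexes, fell by 0.80 ± 0.24 (adjusted p = 0.0397). Its signals were 10.65, 10.67 and 10.74 with KLA plus hBD3, 10.43, 10.40 and 9.48 with KLA, 11.01, 11.01 and 10.41 with hBD3 and 11.17, 10.81 and 10.74 in untreated cells. The value in KLA replicate 3 was the lowest of the 12, and without it the change was -0.49 (adjusted p = 0.0881). That call was also lost without any 1 array of KLA plus hBD3 or of untreated cells (adjusted p up to 0.151), and with neqc. The muscle isoform Cox7a1 stood at 0.06 ± 0.20 (adjusted p = 0.908), Cox6b1 at -0.23 ± 0.21 and Cox5b at -0.03 ± 0.20, and the median of the 16 genes was -0.12.

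In complex V 4 of 16 members fell with KLA (25.0%) and 1 rose (6.25%). Of all genes 11.6% fell and 9.70% rose, and of bright genes 28.7% and 22.7%. Atp5a1, the alpha subunit of the catalytic head, had the largest fall of all members. It read 6.72, 6.67 and 6.91 with KLA plus hBD3, 6.64, 6.80 and 7.33 with KLA, 7.79, 7.55 and 7.93 with hBD3 and 7.97, 8.13 and 7.88 in untreated cells. Both groups with KLA lay below both groups without it. The fall with KLA was 1.07 ± 0.16 (adjusted p = 0.000509), but the second Atp5a1 probe stood at 0.11 (adjusted p = 0.787), so that the probes of this gene disagreed. Atp5b, the catalytic beta subunit, rose by 0.29 ± 0.08 (adjusted p = 0.0348). That call was lost with median centring, without KLA replicate 1 or 2 and without any untreated array (adjusted p up to 0.123).

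Atp5d, the delta subunit of the central stalk, fell by 0.54 ± 0.13 (adjusted p = 0.0122, up to 0.0558 without untreated replicate 2 or 3). Atp5h, of the peripheral stalk, was lower by the test (-0.62 ± 0.19, adjusted p = 0.046), though its KLA and untreated arrays overlapped, and its call held only without KLA plus hBD3 replicate 3, KLA replicate 3 or untreated replicate 1 among 12 fits that left out an array (adjusted p up to 0.178). For Atp5o, which joins the peripheral stalk to the head, the brightest probe fell by 0.26 ± 0.07 (adjusted p = 0.0354, up to 0.144 without KLA replicate 1 or 2 or any untreated array), a dimmer probe rose by 0.52 ± 0.13 (adjusted p = 0.015), and the brightest stood at 0.17 with scaling to detected probes. Atp5j, also of the peripheral stalk, stood at -0.01 ± 0.16. The median of the complex was -0.23. Of the 18 calls with KLA over all complexes, 10 held in each of the 12 fits that left out an array.

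**Figure D2:**
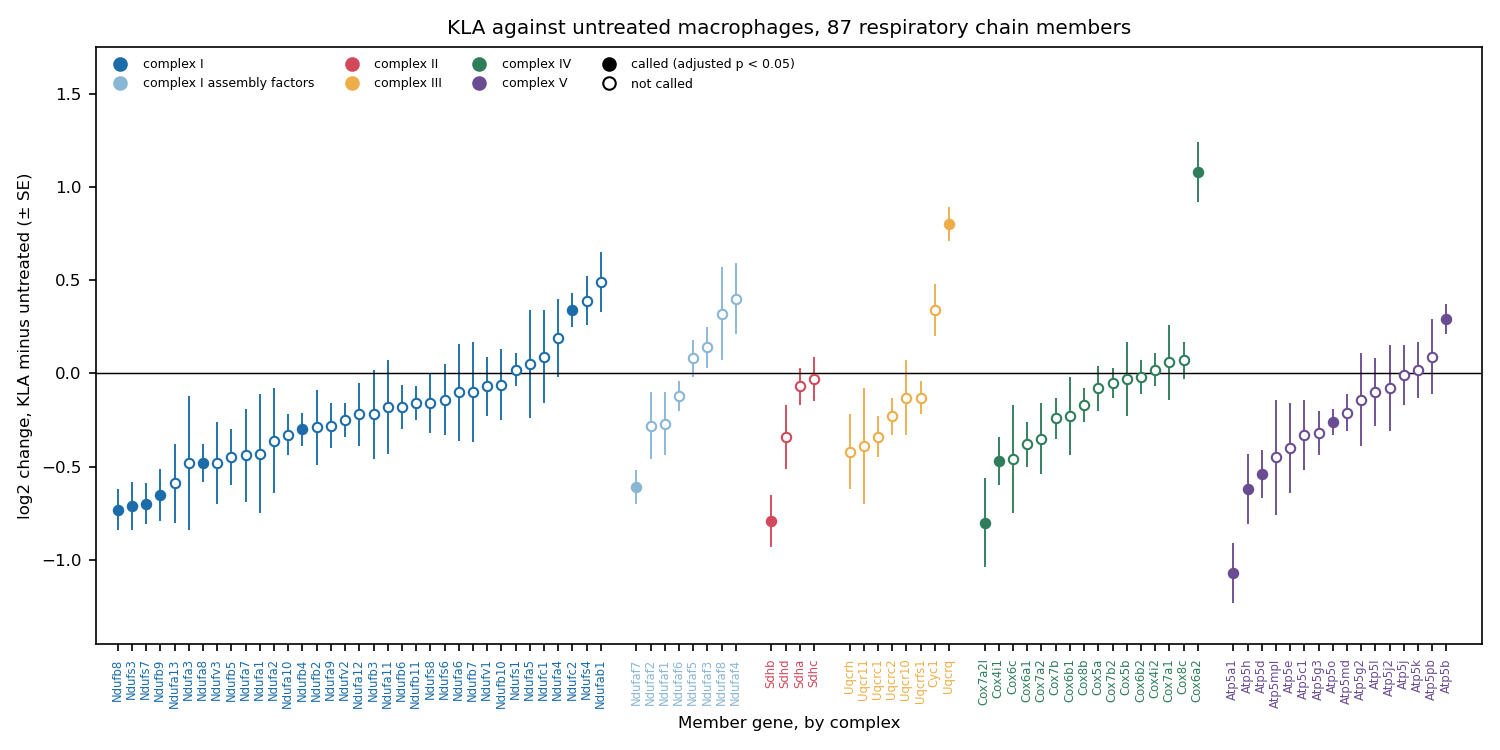
Log2 change, KLA minus untreated, of each of the 87 members (points, with SE bars, n = 3 per group), ordered by value within each complex, with filled points for adjusted p under 0.05. Values run from -1.07 for Atp5a1 to 1.08 for Cox6a2, and 67 of 87 lie below 0.

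The comparison of KLA plus hBD3 with KLA shows what the peptide altered in stimulated cells. It gave 3 calls among the 87 members, 2 higher (2.30%) and 1 lower (1.15%), where all genes gave 5.85% higher and 4.97% lower and bright genes 18.5% and 11.1%. Of the 57 bright members 1 was higher and 0 lower. The median over the members was 0.00, and 44 changes were positive and 43 negative. Of the 12 macrophage markers 6 were called higher and 1 lower here, Camp fell by 0.84 and Pdgfrb was at least 2.09-fold lower with the peptide, and the part of these markers was not tested. Cox6a2 fell by 1.12 ± 0.16 with the peptide (adjusted p = 0.000891), to 6.52 ± 0.19 in KLA plus hBD3, against 7.64 ± 0.34 in KLA (SD, n = 3). Its level with KLA plus hBD3 differed from that of untreated cells by -0.04 (adjusted p = 0.955).

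Ndufaf7 rose by 0.60 ± 0.09 (adjusted p = 0.00113), to a level that differed from untreated cells by -0.01. Ndufb8 rose by 0.49 ± 0.11 (adjusted p = 0.014), and its dimmer probe stood at 0.26 (adjusted p = 0.0774). The calls of Cox6a2 and Ndufaf7 held in all 12 fits that left out an array, and that of Ndufb8 did not survive the removal of KLA plus hBD3 replicate 1 or 2 or KLA replicate 1 (adjusted p up to 0.0666). Scaling to detected probes ended the calls of Ndufaf7 and Ndufb8, and median centring that of Ndufb8. Ndufs3 stood at 0.42 (adjusted p = 0.0824), Ndufs7 at 0.21 (adjusted p = 0.414) and Uqcrq at -0.26 (adjusted p = 0.115).

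**Figure D3:**
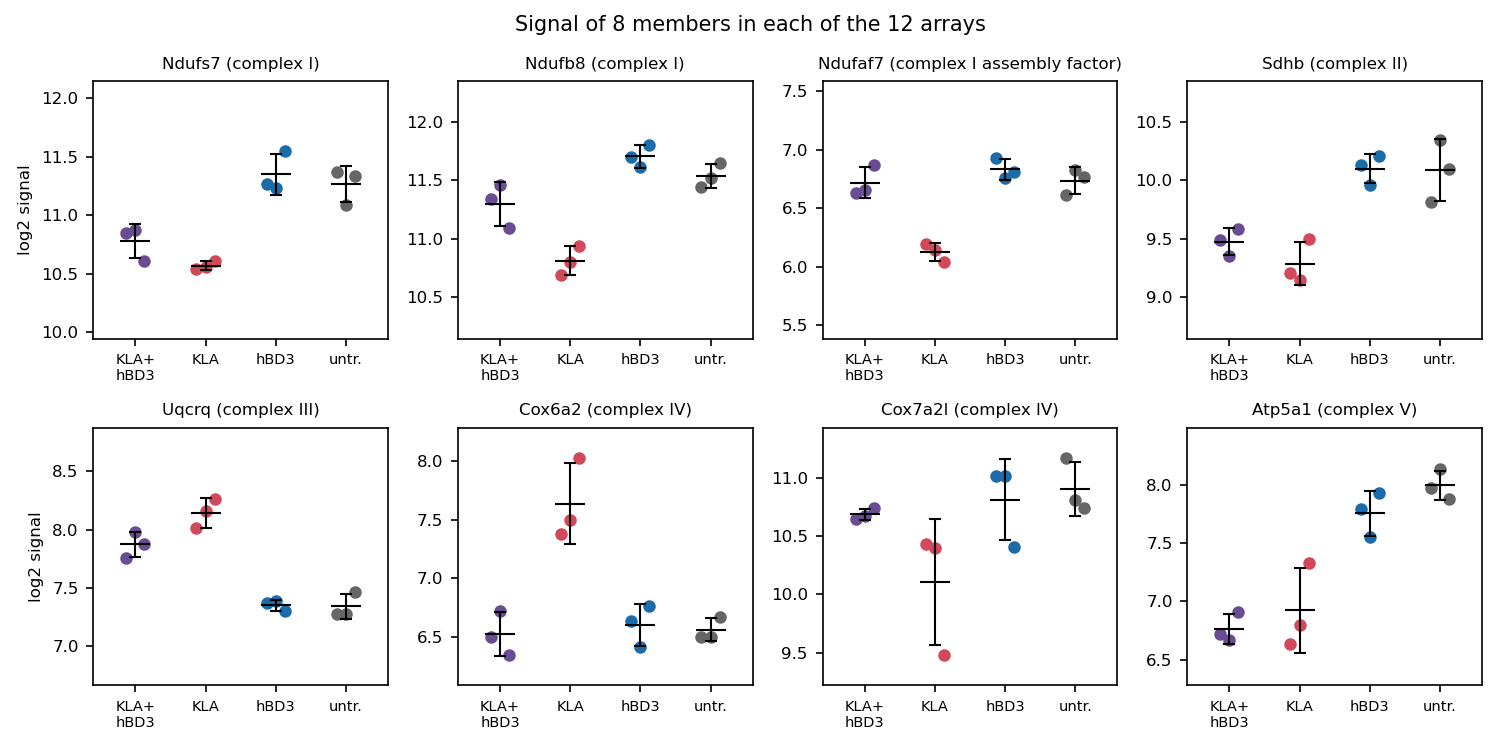
Log2 signal of 8 members in each array (dots), by treatment group, with the mean (long bar) and SD (error bars, n = 3 per group); each panel has its own axis range. Cox6a2 averages 7.64 in KLA and 6.52 to 6.60 in the other groups, while Atp5a1, Sdhb, Ndufs7 and Uqcrq keep the groups with KLA apart from those without.

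KLA plus hBD3 replicate 3 weighed on these comparisons. Its bright members had a median difference from the untreated mean of -0.57, against -0.06 and -0.02 in replicates 1 and 2, -0.28, -0.26 and -0.08 in KLA, 0.09, 0.07 and 0.18 in hBD3 and -0.09, 0.04 and 0.05 in untreated arrays. It was the lowest array of its group for 52 of 87 members (59.8%), where it was so for 29.9% of bright genes. This count alone did not set it apart. Untreated replicate 1 was lowest for 50 members (57.5%, and 40.9% of bright genes) and hBD3 replicate 2 for 46 (52.9%, and 32.3%). The median SD of bright members was 0.29 in KLA plus hBD3 and 0.13 to 0.16 in the other groups. Bright cytosolic ribosomal protein genes, a set added after the low array was seen, stood at -0.62 in the same array and at -0.01 and -0.07 in replicates 1 and 2, while bright genes as a whole stood at 0.03. Whether the cells or the array differed was not tested.

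Without KLA plus hBD3 replicate 3 the median of the members against KLA was 0.11 and 4 were called. They were Cox6a2 (-1.03, adjusted p = 0.00581), Ndufaf7 (0.52, adjusted p = 0.00589), Ndufb8 (0.59, adjusted p = 0.00595) and Ndufv3 (0.58, adjusted p = 0.0246), an accessory subunit of the NADH-binding part. Against untreated cells the median without that array was -0.05, and against hBD3 it was -0.13.

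**Figure D4:**
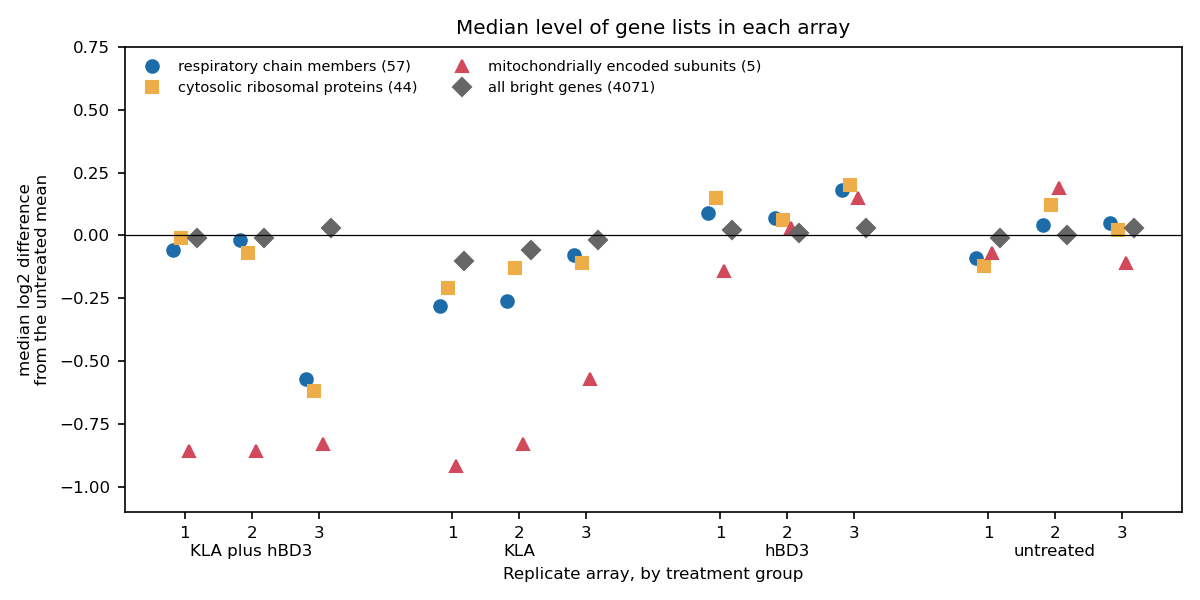
Median log2 difference from the mean of the untreated arrays, for each of the 12 arrays, of the 57 bright members, 44 bright cytosolic ribosomal protein genes, 5 bright mitochondrially encoded subunits and all 4071 bright genes. KLA plus hBD3 replicate 3 is low for the members (-0.57) and the ribosomal genes (-0.62), while the mitochondrially encoded subunits are between -0.92 and -0.57 in all 6 arrays with KLA.

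Set against untreated cells, KLA plus hBD3 gave 5 members lower (5.75%) and 2 higher (2.30%), where all genes gave 3.44% and 3.11% and bright genes 9.24% and 10.2%. Among the 57 bright members 2 were lower and 1 higher. The median was -0.18, and -0.06 and -0.69 with scaling to detected probes and with median centring. Atp5a1 fell by 1.23 (adjusted p = 0.0013), Ndufb9 by 0.74 (adjusted p = 0.0105), Sdhb by 0.61 (adjusted p = 0.0257), Ndufb5 by 0.58 (adjusted p = 0.0499) and Ndufs7 by 0.49 (adjusted p = 0.0228). Uqcrq rose by 0.53 (adjusted p = 0.00518) and Ndufc2 by 0.39 (adjusted p = 0.0247), although with median centring these stood at -0.07 and -0.21. Atp5a1 is read here from its brightest probe, and its second probe showed no fall with KLA alone. The calls of Atp5a1 and Uqcrq held in all 12 fits that left out an array. Of the other 5, Ndufb9 was lost without KLA plus hBD3 replicate 1 (adjusted p = 0.0567) and Ndufb5, Ndufc2, Ndufs7 and Sdhb in 4 to 8 fits, including those without KLA plus hBD3 replicate 1 or 2, with adjusted p up to 0.182, 0.117, 0.0882 and 0.123.

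KLA plus hBD3 against hBD3 gives the change with KLA when the peptide was in both groups. It called 9 members lower (10.3%) and 1 higher (1.15%), where all genes gave 4.70% and 3.26% and bright genes 11.4% and 10.0%. The bright members were at 5 lower and 0 higher of 57. Atp5a1 fell by 0.99 (adjusted p = 0.00346), Ndufs7 by 0.57 (adjusted p = 0.00786), and Uqcrq rose by 0.52 (adjusted p = 0.00424), and these were the 3 calls that held in all 12 fits that left out an array. With scaling to detected probes the calls of Ndufs7 (adjusted p = 0.12) and Uqcrq (adjusted p = 0.0984) were lost, and with median centring Uqcrq stood at 0.19 (adjusted p = 0.593). Of the 10 calls 2, Atp5a1 and Cox7a2, held under quantile normalization, neqc and both of these scalings. The call of Atp5a1 rests on its brightest probe, and its second probe showed no fall with KLA alone. Cox7a2, the isoform of subunit VIIa known from liver, read 6.24, 6.35 and 6.25 with KLA plus hBD3, 6.50, 6.30 and 7.10 with KLA, 7.08, 6.97 and 7.52 with hBD3 and 6.92, 6.88 and 7.15 in untreated cells. It fell by 0.91 ± 0.19 against hBD3 (adjusted p = 0.0137, up to 0.0563 without KLA plus hBD3 replicate 1 or hBD3 replicate 3), but stood at -0.35 in KLA against untreated cells (adjusted p = 0.299). Ndufb5 fell by 0.70 (adjusted p = 0.0159), Sdhb by 0.62 (adjusted p = 0.0184), Ndufb9 by 0.57 (adjusted p = 0.035), Ndufa8 by 0.48 (adjusted p = 0.0186), Ndufb8 by 0.40 (adjusted p = 0.0478) and Atp5o by 0.34 (adjusted p = 0.0182). These 6 calls were lost in 3 to 10 of the fits that left out an array, each of them without hBD3 replicate 1 and without hBD3 replicate 3, and each without at least 1 array of KLA plus hBD3 (adjusted p up to 0.163).

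The changes with KLA in the presence and in the absence of hBD3 share no array, and can be set side by side. Their calls are not independent, since the same fit over all 12 arrays gave the spread for both. By sign 58 members were lower in both (66.7%) and 9 higher in both (10.3%), where 31.6% and 34.5% of all genes and 40.5% and 34.2% of bright genes were, a difference that was not tested. The change in the presence of hBD3 includes KLA plus hBD3 replicate 3, where the bright members stood at -0.57. The lean was not particular to the members, since 43 of 51 cytosolic ribosomal protein genes had a negative change with the peptide and 33 without it. All 14 members called lower with KLA alone had a negative change in the presence of hBD3 too, which was not counted over all genes. Called lower in both were Atp5a1, Atp5o, Ndufa8, Ndufb8, Ndufb9, Ndufs7 and Sdhb, which were 77.8% of the 9 called with the peptide and 50.0% of the 14 called without it. Over bright genes these shares were 85.3% and 33.8%, and over all genes 79.9% and 32.5%. These calls are of the brightest probe per gene, and for Atp5a1 and Atp5o another probe showed no fall with KLA alone. Uqcrq was called higher in both, though both calls were lost with median centring and that with the peptide also with scaling to detected probes.

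**Figure D5:**
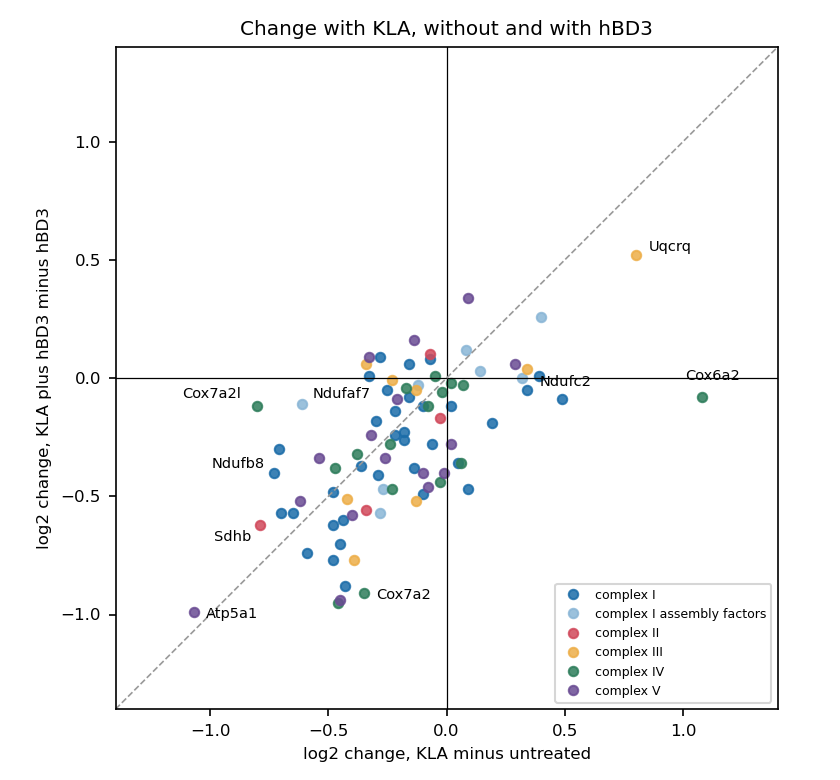
Log2 change with KLA in the presence of hBD3 (vertical axis, KLA plus hBD3 minus hBD3) against the change in its absence (horizontal axis, KLA minus untreated) for the 87 members, coloured by complex; the dashed line marks equal changes. Most members lie below 0 on both axes (58 of 87), and Cox6a2, at 1.08 without and near 0 with the peptide, lies far from the line. The vertical axis includes KLA plus hBD3 replicate 3, which was low for the members.

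A test of the difference between these changes, the interaction of hBD3 and KLA, called 1 member, Cox6a2, lower (1.15% of members, where all genes gave 2.69% lower and 2.81% higher). Its change with KLA was smaller by 1.16 ± 0.22 in the presence of the peptide (interaction -1.16, adjusted p = 0.0144), and lay between -1.29 and -0.97 when any array was left out, with adjusted p up to 0.0425. With median centring the difference was -0.78 (adjusted p = 0.0855), and with KLA replicate 1, the array whose title does not carry the peptide's name, as the whole KLA group it was -0.91 (adjusted p = 0.0534). The next smallest p-values among members were those of Ndufaf7 (0.50 ± 0.12, adjusted p = 0.0511), Ndufc2 (-0.39, adjusted p = 0.144) and Ndufab1 (-0.58, adjusted p = 0.295). At an unadjusted p under 0.05 there were 9 of the 87 members, where 3307 of 19057 genes were.

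With hBD3 alone 0 of the 87 members were called against untreated cells, where 0.00525% of all genes were called in either direction. Over all probes 2 were called, and 15 with a replicate block, which called 0 members too. At an unadjusted p under 0.05 limma gave 3 members, namely Ndufc2 (0.44 ± 0.09, adjusted p = 0.178), Ndufab1 (0.41 ± 0.16, adjusted p = 0.626) and Uqcrc1 (-0.24 ± 0.11, adjusted p = 0.683). Of all 19057 genes 1842 were under that p. Ndufc2 read 10.79, 11.02 and 10.95 with hBD3 and 10.43, 10.46 and 10.55 in untreated cells, where the groups did not overlap. By sign 60 of 87 members were higher with hBD3, where 10336 of 19057 genes and 2125 of 4071 bright genes were. The median of the members was 0.07, and that of all genes 0.01. With median centring the members stood at -0.15, the bright members at -0.18 and all bright genes at -0.29. All hBD3 arrays lay above all untreated arrays for 12 members and below them for 2, where this was so for 7.76% and 5.82% of all genes and 12.4% and 9.36% of bright genes.

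Of the subunits encoded by mitochondrial DNA, which assemble with these members, 8 had probes, with a median change of -0.53 with KLA. Called lower were 4 (50.0%) and higher 0, where all genes gave 11.6% and 9.70% and bright genes 28.7% and 22.7%. Counts for this list and those below were not made under the other scalings. ATP6, of the proton channel of complex V, read 8.51, 8.61 and 8.91 with KLA plus hBD3, 8.56, 8.40 and 9.38 with KLA, 10.00, 10.12 and 10.50 with hBD3 and 10.17, 10.43 and 10.11 in untreated cells. The groups with KLA lay below those without it, and ATP6 fell by 1.46 with KLA (adjusted p = 0.000623). COX2 fell by 1.03, ND1 by 0.90 and CYTB by 0.70. The 5 bright ones had medians of -0.86, -0.86 and -0.83 in KLA plus hBD3, where replicate 3 did not stand apart, and -0.92, -0.83 and -0.57 in KLA.

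Enzymes of the tricarboxylic acid cycle, which supply the chain with NADH and succinate, had a median change of -0.37 with KLA. Of the 13 genes 5 were lower (38.5%) and 1 higher (7.69%), where all genes gave 11.6% and 9.70% and bright genes 28.7% and 22.7%. The NADP-linked isocitrate dehydrogenase Idh2 fell by 1.23 (adjusted p = 0.00116), and the succinyl-CoA ligase subunits Suclg2 and Suclg1 by 0.85 and 0.70. With hBD3 added to KLA 2 were higher (15.4%) and 1 lower (7.69%), where all genes gave 5.85% and 4.97% and bright genes 18.5% and 11.1%. Suclg2 rose by 0.55 and Idh3g, a subunit of the NAD-linked enzyme, by 0.56, and Dlst, of the oxoglutarate dehydrogenase complex, fell by 0.39 (adjusted p = 0.0186). Suclg2 had signals of 7.44, 7.42 and 7.57 with KLA plus hBD3, 6.87, 6.86 and 7.04 with KLA, 7.57, 7.64 and 7.80 with hBD3 and 7.95, 7.75 and 7.63 in untreated cells, and its interaction was 0.66 (adjusted p = 0.0214).

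Regulators and helpers of the chain moved both ways with KLA. Among 16 nuclear regulators of mitochondrial genes 4 were higher (25.0%) and 3 lower (18.8%), with a median of -0.01. All genes gave 9.70% higher and 11.6% lower, and bright genes 22.7% and 28.7%. Ppargc1b, a coactivator of respiratory genes, read 8.39, 8.52 and 8.57 with KLA plus hBD3, 7.91, 8.01 and 7.87 with KLA, 9.01, 9.26 and 8.83 with hBD3 and 9.15, 9.36 and 9.35 in untreated cells. It fell by 1.36 ± 0.11 with KLA (adjusted p = 3.08e-06) and rose by 0.57 when hBD3 was added to KLA (adjusted p = 0.00576), with an interaction of 0.82 (adjusted p = 0.0106). Its relative Pprc1 rose by 1.18 with KLA (adjusted p = 4.42e-06) and fell by 0.57 with hBD3 added (adjusted p = 0.00277), and Esrra, the nuclear receptor partner of these coactivators, rose by 1.30 (adjusted p = 0.00186). The probe of Ppargc1a was not detected.

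Of 40 assembly factors and electron carriers outside the member families 7 rose (17.5%) and 7 fell (17.5%) with KLA, with a median of 0.00. All genes gave 9.70% higher and 11.6% lower, and bright genes 22.7% and 28.7%. Cycs, cytochrome c, rose by 0.93 (adjusted p = 3.74e-05). It stood at 10.08, 10.15 and 9.96 with KLA plus hBD3, 10.50, 10.48 and 10.47 with KLA, 9.87, 9.64 and 9.75 with hBD3 and 9.41, 9.78 and 9.48 in untreated cells, so that all KLA arrays lay above all others. Cycs fell by 0.42 when hBD3 was added to KLA (adjusted p = 0.0219), with an interaction of -0.62 (adjusted p = 0.0334). Cox17, a copper chaperone for complex IV, rose by 1.27 (adjusted p = 0.00977), and Atpif1, the inhibitor of ATP synthase, fell by 0.79 (adjusted p = 0.0102).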

How the data were processed

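RNA from the macrophages was hybridised to Illumina MouseWG-6 v2.0 arrays. Per the labels and methods, the authors exported probe signals from BeadStudio, read them with beadarray, quantile-normalized them and tested them with limma. The deposited intensity values were linear normalized signals of 45281 probes. A second deposited table held intensity before normalization with a detection p-value per probe, and its column headings name groups but not replicates. After quantile normalization each of its 12 columns equalled 1 array of the deposited normalized values at all probes, within 0.1%. That array was in the group the heading shows, and the columns were used by group. Gene names came from the platform annotation (34885 probes with 1 gene, 18 with several, 10378 with none).

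Normalized signals were taken to log2 and fitted with limma 3.58.1 in R 4.3.3, as a group-means model over all 12 arrays (8 residual and 3.66 prior degrees of freedom), for 6 comparisons, two-sided, with Benjamini-Hochberg adjustment over all probes and a threshold of 0.05. A fold against a group with no detected array is a bound, with each dim array set to its lowest detected signal or to the probe's own signal, whichever was higher. The script was tested on simulated data. The number of arrays, 3 per group, limits the precision. Each complex names its members with the largest called changes, its brightest and its least changed member, and members by interaction p. Members, lists and rules were chosen with earlier results of these data known. The series describes 3 biological replicates per condition and the study gives each treatment as made on 3 separate mice, but which array came from which mouse is not given in the sources used here.

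Same-numbered arrays of KLA, hBD3 and untreated cells departed from their group means together over all probes (correlations of 0.19 to 0.57). For KLA plus hBD3 they did not (-0.05 to 0.17). The main fit held no block, so that its p-values leave this pairing out. The numbers were used only in an alternative fit over all 12 arrays, with the replicate number as a block. Other scalings, filters, variance models and the removal of each array were tried as alternatives. Mean signal of at least 8 (bright) and the ribosomal gene set were added after the data were seen.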

Additional observations from a re-analysis of the deposited data

Results flagged for a closer look

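The change of Cox6a2 with KLA differed between cells with and without hBD3 by -1.16 ± 0.22 on the log2 scale (interaction, limma adjusted p = 0.0144), which was a difference between groups found by a test of the difference itself. The KLA change was -0.08 with the peptide and 1.08 without it. The KLA arrays lay above all other arrays for this gene. Groups of 3 arrays are too small for a test of stray arrays, so none was made.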

How the results depend on the processing

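The number of members called moved with the scaling, the arrays used and, in places, the variance model. KLA against untreated cells gave 18, and 41 with median centring, 32 with scaling to probes detected in all arrays and 9 with KLA replicate 1 as the whole KLA group, in which that array is assumed to vary like the others. KLA plus hBD3 against KLA gave 3, and 1 with KLA replicate 1 alone. KLA plus hBD3 against untreated cells gave 7, and 47 with median centring, 23 with scaling, 3 with a trended prior variance and 2 to 10 when an array was left out (2 and 3 without KLA plus hBD3 replicate 1 and 2, 4 without untreated replicate 3). KLA plus hBD3 against hBD3 gave 10, and 23 with median centring, 4 with scaling and 3 to 12 when an array was left out (3 without hBD3 replicate 3, 4 without hBD3 replicate 1 or KLA plus hBD3 replicate 1, 6 without KLA plus hBD3 replicate 3). The interaction gave 1, and 0 with median centring or with KLA replicate 1 alone, 2 with neqc and 1 to 2 when an array was left out (2 without untreated replicate 1). The share of bright genes called moved too. With KLA it was 28.7% lower and 22.7% higher, 46.3% and 6.93% with median centring, and 25.0% and 32.8% with scaling. KLA plus hBD3 against untreated cells gave 9.24% and 10.2%, then 43.9% and 1.42%, and 14.1% and 15.0%. Against hBD3 it gave 11.4% and 10.0%, then 14.5% and 2.95%, and 7.27% and 7.98%. The cause was not tested. No share over all genes is given beside the counts with left-out arrays, the trended variance or KLA replicate 1 alone. Those counts are thus not read as particular to the members.

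Signs turned with scaling to detected probes for Atp5o (0.17), Cox4i1 (0.01) and Ndufb4 (0.37) with KLA, and with median centring for Ndufc2 with KLA (-0.08) and, in KLA plus hBD3 against untreated cells, for Ndufc2 (-0.21), Uqcrq (-0.07), Cycs (-0.14) and Pprc1 (-0.06). Of 105 gene values, 69 kept direction and call with median centring, 68 with scaling, 92 with neqc, and 76 to 100 when an array was left out.

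With the replicate number as a block, KLA plus hBD3 against untreated cells gave 11 members, though its numbers did not pair, and KLA against untreated cells, where they did, gave 22, adding Atp5g3, Cox6a1, Ndufb5 and Uqcrc1. No share over all genes under the block is given here, so the added calls are not read as particular to the members. The block ended no call. The arrays lay on 2 BeadChips, and which lay on which is not given in the sources used here, so that a BeadChip block was not run.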

Other observations

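Mitochondrial protein synthesis and import were read from lists that the comparisons above do not use. Of 76 mitochondrial ribosomal protein genes 13 rose (17.1%) and 7 fell (9.21%) with KLA against untreated cells, with a median log2 change of 0.08. All genes gave 9.70% higher and 11.6% lower, and bright genes 22.7% and 28.7%. Mrps10 rose by 1.24, while Mrpl42 and Mrps6 fell by 1.13 and 1.08. Of 17 carriers and import components 2 rose (11.8%) and 2 fell (11.8%), with a median of -0.05. The translocase subunit Timm17a rose by 0.84, and the phosphate carrier Slc25a3 and the chaperonin Hspe1 fell by 0.78 and 0.58. Of 51 cytosolic ribosomal protein genes 4 rose (7.84%) and 5 fell (9.80%), with a median of -0.10.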
